A study of Drosophila melanogaster with 16 samples.

Results

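The 36 genes described here are Myc and 35 genes whose proteins build ribosomes, most of them in or near the nucleolus. They were taken from the count table by gene symbol, from a list of 36 names chosen with earlier results of these data known. All 36 were found among the 17873 genes of the table and all 36 passed the filter on low counts. By role they fall into the transcription factor Myc, 5 proteins of box C/D small nucleolar ribonucleoproteins (snoRNPs), 3 box H/ACA and scaffold proteins, 5 small-subunit factors, 15 large-subunit factors, 3 GTPases of the nucleostemin family and 4 other nucleolar proteins.

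Polyadenylated RNA was sequenced from dissected larval midguts of Drosophila melanogaster, with 4 biological replicates in each of 4 groups. All larvae carried mex-GAL4, a driver active in enterocytes, the absorptive cells of the midgut, so silencing reached other cell types only where that driver is active. Control larvae had mex-GAL4 over the attP40 landing site with no hairpin, and Hnf4i larvae had mex-GAL4 and a UAS hairpin against Hnf4 inserted at attP40. Hnf4 encodes a nuclear receptor. Silencing rested on 1 hairpin line, and the paternal stocks of the 2 genotypes also differed at other marker loci. Midguts were taken on day 3 after egg laying, in the second larval instar (L2), 30 to a library, or on day 4, in the third (L3), 10 to a library. All larvae ate a diet of yeast alone. The day comparison therefore asks how the midgut changes across the L2 to L3 transition, and the genotype comparison asks what Hnf4 silencing in enterocytes does on each day. The number of midguts pooled differed between the days, and the effects of age and of pool size cannot be told apart.

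Ribosomes are assembled in the nucleolus, where RNA polymerase I transcribes the ribosomal RNA precursor. Box C/D and box H/ACA snoRNPs guide its 2'-O-methylation and pseudouridylation, and processing factors cut and fold it into the small and large subunits, which GTPases and helicases help to mature and export. In Drosophila, Myc raises transcription of many of these genes and is a main driver of larval growth, including growth of the polyploid enterocytes, which enlarge by endoreplication.

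Library totals ranged from 44546248 to 83418453 counts, and the lowest count of any of the 36 genes in any library was 135. Hnf4 itself was lower in Hnf4i midguts, at 91.9 ± 2.69 against 48.4 ± 2.00 CPM (library-scaled counts; SD, n = 4) on day 3 and 128 ± 4.09 against 64.6 ± 4.31 CPM on day 4, with no overlap of the groups (exact two-sided permutation p = 0.0286 on each day, the smallest that 4 against 4 can give). Enterocyte markers summed to 3094 to 3547 CPM on day 3 and to 4581 to 6903 CPM on day 4. The digestive enzyme genes Amy-p and Mal-A1 were the largest, from 1021 to 2855 and from 1436 to 2387 CPM in control midguts. There mex1, Myo31DF and nub changed by 0.03, 0.15 and -0.15 on the log2 scale, short of the threshold given below. In Hnf4i midguts mex1 and nub passed it (0.62 and 0.63). Between genotypes on day 4, 2 of the 7 markers were higher and 2 lower. Fat body markers, from a neighbouring organ, summed to 11.7 to 41.6 CPM on day 3 and 23.3 to 141 CPM in control midguts on day 4, but to 1116, 855, 12.8 and 2823 CPM in Hnf4i replicates 1 to 4 on day 4. CPM here is scaled by TMM, so every value is relative to the other transcripts of its library, and in whole midguts fewer cells of a type and less RNA per cell cannot be told apart.

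All 36 genes fell from day 3 to day 4 in control midguts, and all 36 fell in Hnf4i midguts as well. A gene was called when its adjusted p in edgeR's quasi-likelihood test was under 0.05 and its log2 fold change at least 0.5 in size. Of all 9801 genes tested, 22.2% were called lower on day 4 in control and 23.9% in Hnf4i midguts, and 17.0 and 18.8% were called higher. The median log2 fold change of the 36 was -2.49 in control and -2.40 in Hnf4i midguts, so that 17.8 and 18.9% of the day 3 level remained, beside medians of 0.01 and -0.01 over all genes tested. In each genotype the day 3 and day 4 libraries of all 36 genes did not overlap, where 29.9% of all genes tested in control and 30.7% in Hnf4i midguts had every day 4 library below every day 3 library. The log2 fold change was -2 or lower for 29 of them in control and 27 in Hnf4i midguts, and -1 or lower for all 36 in both.

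The 36 genes also held a smaller share of the counts on day 4. On day 3 the 36 genes summed to 2904 ± 244 CPM in control midguts and to 2923 ± 189 CPM with Hnf4 silenced. On day 4 the sums were 570 ± 53.3 and 604 ± 119 CPM (SD, n = 4). As a share of all counts this was 0.286 to 0.347% of a control library and 0.303 to 0.359% of an Hnf4i library on day 3. On day 4 the share was 0.0456 to 0.0566% in control and 0.0452 to 0.0729% in Hnf4i libraries.

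**Figure D1:**
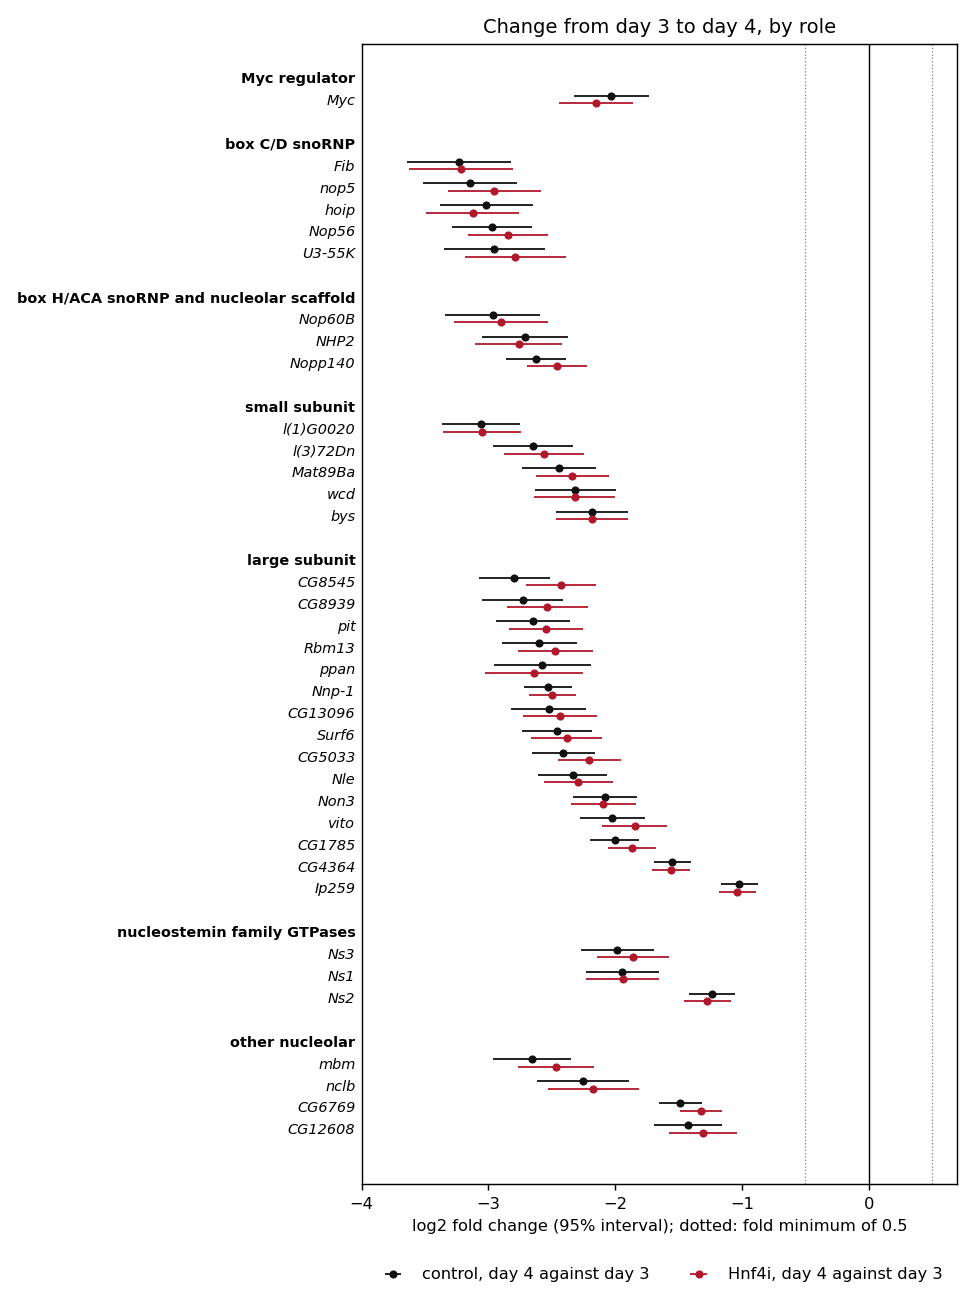
Log2 fold change from day 3 to day 4 of each of the 36 genes, by role, in control (black) and Hnf4i (red) midguts, with 95% intervals. All points lie left of zero and of the dotted fold minimum of 0.5, from -3.23 for Fib to -1.02 for Ip259 in control midguts.

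Myc (FBgn0262656), a basic helix-loop-helix leucine zipper transcription factor, lies on chromosome X, positions 3373159 to 3391697 on the plus strand in BDGP6.54. In control midguts it stood at 77.5, 69.9, 77.2 and 66.6 CPM in the replicates of day 3 and at 18.3, 16.8, 17.7 and 18.5 CPM on day 4. In Hnf4i midguts it stood at 79.8, 64.9, 68.9 and 92.2 CPM on day 3 and 22.7, 16.9, 16.4 and 12.7 CPM on day 4. Every day 4 library lay below every day 3 library, and on each day the genotypes overlapped. The log2 fold change between days was -2.03 (SE 0.14, adjusted p = 1.25e-09) in control and -2.15 (SE 0.14, adjusted p = 6.47e-10) in Hnf4i midguts, which puts Myc 27th of the 36 by size of the fall in control midguts.

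Among partners and regulators of Myc, 3 of the 12 genes tested were called between days, Mnt, Max and Trf in each genotype. Mnt encodes the Max-binding repressor that opposes Myc. It was at 33.8, 34.5, 27.7 and 29.8 CPM in control midguts on day 3 and rose to 78.2, 76.4, 104 and 88.7 CPM on day 4. In Hnf4i midguts it went from 31.1, 31.2, 29.2 and 28.1 CPM to 65.6, 69.8, 85.1 and 81.4 CPM. The days did not overlap in either genotype, and Mnt changed by 1.46 (SE 0.10, adjusted p = 2.17e-09) on the log2 scale in control and by 1.34 (SE 0.10, adjusted p = 6.17e-09) in Hnf4i midguts. Myc and Mnt thus changed in opposite directions. Max, the partner that both proteins need to bind DNA, fell from 12.0 ± 0.13 to 8.10 ± 1.08 CPM in control midguts (log2 fold change -0.56). With Hnf4 silenced it fell from 13.3 ± 1.27 to 8.60 ± 0.74 CPM (-0.63). Trf, a TBP-related factor that in Drosophila serves RNA polymerase III, fell by 1.33 and 1.39 on the log2 scale. The median over the 12 was -0.18 in control and -0.07 in Hnf4i midguts.

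**Figure D2:**
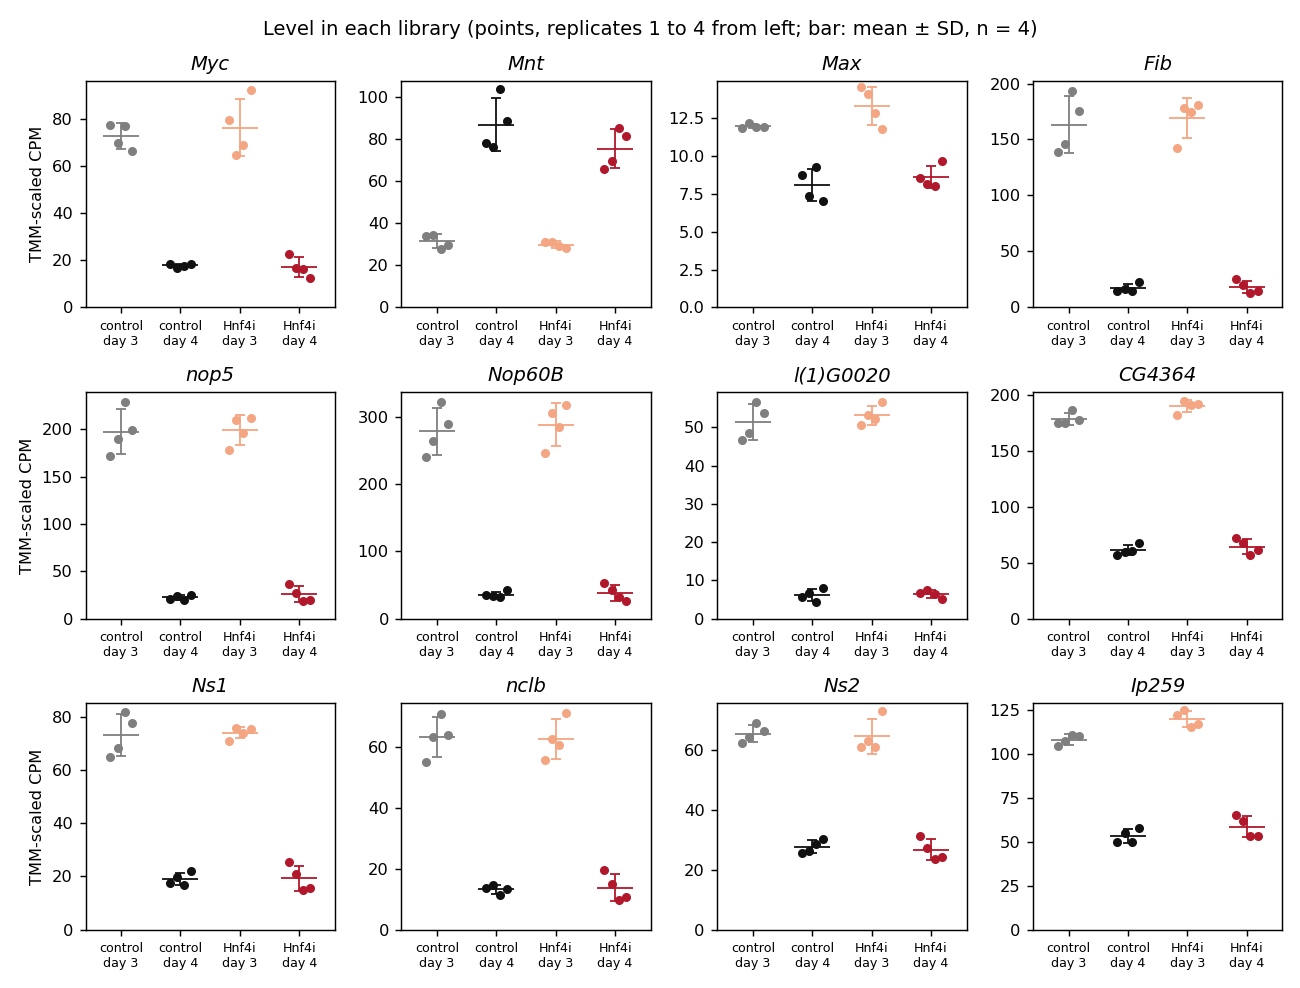
TMM-scaled CPM in each of the 4 replicates (points, from left) with mean and SD for Myc, the Max-binding repressor Mnt, their shared partner Max, and 9 nucleolar genes. Day 4 points lie below all day 3 points of the same genotype in every panel except Mnt, where they lie above, and the genotypes overlap on each day except for Ip259 on day 3.

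The box C/D snoRNP genes had the lowest role median, -3.02 in control and -2.95 in Hnf4i midguts. Fib (chromosome 2R, 23072909 to 23074725, minus strand), the methyltransferase of these particles, fell more than any other of the 36. It was at 139, 146, 193 and 175 CPM in control midguts on day 3, against 15.1, 16.8, 14.9 and 22.8 CPM on day 4. In Hnf4i midguts it was at 142, 179, 175 and 180.4 CPM on day 3 and 25.3, 19.9, 13.2 and 14.3 CPM on day 4. Between days Fib changed by -3.23 (SE 0.19, adjusted p = 2.55e-10) in control and -3.21 (SE 0.19, adjusted p = 2.95e-10) in Hnf4i midguts, with 10.6 and 10.8% remaining.

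nop5 (chromosome 2L, 6916753 to 6918743, minus strand), is the Nop58 homologue and a core protein of the same particles. It read 172, 189.7, 229 and 199.6 CPM in control midguts on day 3 and 21.0, 24.1, 19.2 and 25.1 CPM on day 4. The Hnf4i libraries held 178, 210.1, 197 and 212 CPM on day 3 and 36.9, 27.1, 19.0 and 19.8 CPM on day 4. Its log2 fold change was -3.14 (SE 0.17) in control and -2.95 (SE 0.17) in Hnf4i midguts, and replicate 1 of Hnf4i was the highest library of day 4. The other box C/D proteins were close, with Nop56 at -2.97 and -2.85 and the RNA-binding protein hoip at -3.02 and -3.13. The U3 snoRNP protein U3-55K was at -2.96 and -2.79.

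Of the H/ACA proteins, Nop60B (chromosome 2R, 24174877 to 24186343, plus strand), is the dyskerin homologue and pseudouridine synthase. It was at 240.0, 264, 322 and 289.5 CPM in control midguts on day 3, against 35.2, 33.4, 32.1 and 42.3 CPM on day 4. Hnf4i midguts had 246, 306, 286 and 318 CPM on day 3 and 53.6, 42.2, 32.3 and 26.5 CPM on day 4. The days were far apart in both genotypes, with log2 fold changes of -2.97 (SE 0.18) and -2.90 (SE 0.18). NHP2, a core H/ACA protein, changed by -2.71 and -2.76, and the snoRNP chaperone Nopp140 by -2.62 and -2.46. The other H/ACA core proteins, which are not among the 36, fell as well, Gar1 by 2.80 and 2.83 and Nop10 by 2.40 and 2.47 on the log2 scale.

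The small-subunit factors had a median of -2.44 in control and -2.34 in Hnf4i midguts. l(1)G0020 (chromosome X, 8716713 to 8720277, minus strand), the homologue of the RNA cytidine acetyltransferase NAT10, fell most. Its control values were 46.6, 48.5, 56.6 and 53.8 CPM on day 3 and 5.56, 6.77, 4.47 and 7.92 CPM on day 4. Its Hnf4i values were 50.6, 53.2, 52.2 and 56.6 CPM on day 3 and 6.78, 7.52, 6.35 and 5.0 CPM on day 4. Within a day the 8 libraries overlapped between genotypes, and the log2 fold change was -3.06 (SE 0.15) in control and -3.05 (SE 0.15) in Hnf4i midguts. The U3 processome protein genes l(3)72Dn, Mat89Ba and wcd changed by -2.65, -2.44 and -2.32 in control midguts, and bys, the bystin gene, by -2.18.

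The log2 fold changes of the 15 large-subunit genes ranged from -2.79 to -1.02 in control and from -2.64 to -1.04 in Hnf4i midguts, with medians of -2.46 and -2.38. The largest fall in control midguts was that of CG8545, the homologue of the rRNA methyltransferase NOP2 (-2.79, SE 0.13), followed by CG8939, the Spb1 homologue (-2.73), and pit, a DEAD-box helicase (-2.65). In Hnf4i midguts ppan, which encodes a Brix-domain protein, fell most (-2.64), ahead of pit (-2.55) and CG8939 (-2.54). Rbm13, Nnp-1, CG13096, Surf6, CG5033, Nle, Non3, vito and CG1785 lay between -2.60 and -2.01 in control midguts. CG5033 encodes the BOP1 homologue, a partner of pescadillo, and Nle the Rsa4 homologue.

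CG4364 (chromosome 2L, 9708921 to 9711271, minus strand), the pescadillo homologue, had one of the smaller falls of this role. It stood at 175, 175, 187 and 177 CPM in control midguts on day 3, against 56.9, 59.5, 60.01 and 67.5 CPM on day 4. With Hnf4 silenced the day 3 libraries held 182, 195, 191 and 192 CPM and those of day 4 held 72.3, 67.3, 56.5 and 61.4 CPM. The libraries of a group were close together, and 34.2 and 33.9% of the day 3 level remained (log2 fold change -1.55 and -1.56, SE 0.07 in each).

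Ip259 (chromosome 2L, 10408352 to 10409610, plus strand), the NSA2 homologue, fell least of all 36. It was at 104, 107, 111 and 110.0 CPM in control midguts on day 3, against 50.1, 55.1, 49.7 and 58.1 CPM on day 4. In Hnf4i midguts it was at 122, 125, 115 and 117 CPM on day 3 and 65.3, 61.5, 53.4 and 53.4 CPM on day 4. It kept 49.3% of its level in control (log2 fold change -1.02, SE 0.07, adjusted p = 1.07e-09) and 48.7% in Hnf4i midguts (-1.04, SE 0.07). Exons of Ip259 overlap those of the ribosomal protein gene RpS27A on the same strand, which stood at 1228 CPM on day 3 and 986 CPM on day 4 in control midguts, and whether its reads entered the count of Ip259 was not tested.

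Of the GTPases, Ns1 (chromosome 3R, 17070523 to 17072675, minus strand) encodes nucleostemin. Control midguts held 65.0, 68.4, 81.7 and 77.8 CPM on day 3 and 17.5, 19.9, 16.9 and 22.0 CPM on day 4. Hnf4i midguts held 71.0, 75.6, 73.9 and 75.6 CPM on day 3 and 25.3, 21.0, 15.1 and 15.6 CPM on day 4. The change was the same in both genotypes to 2 decimals, -1.94 (SE 0.14). Ns3, the homologue of the cytoplasmic GTPase Lsg1, changed by -1.98 and -1.86.

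Ns2 (chromosome 2R, 17565779 to 17568456, minus strand), the Nog2 homologue, had the second smallest fall of the 36. Its values were 62.2, 64.3, 69.0 and 66.3 CPM in control midguts on day 3 and 25.7, 26.3, 28.6 and 30.3 CPM on day 4. In Hnf4i midguts they were 61.1, 62.9, 60.9 and 73.0 CPM on day 3 and 31.3, 27.4, 23.6 and 24.4 CPM on day 4. The days did not overlap, and the log2 fold change was -1.24 (SE 0.09) in control and -1.27 (SE 0.09) in Hnf4i midguts.

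The other nucleolar genes had medians of -1.87 and -1.75. nclb (chromosome 2R, 10875748 to 10877296, plus strand), is the PWP1 homologue. It was at 55.1, 63.1, 70.8 and 64.0 CPM in control midguts on day 3, against 13.5, 14.7, 11.3 and 13.5 CPM on day 4. With Hnf4 silenced the day 3 libraries held 55.6, 62.8, 60.6 and 71.2 CPM and those of day 4 held 19.8, 15.1, 9.85 and 10.7 CPM. Both days held libraries of the genotypes in mixed order, and the log2 fold change was -2.25 (SE 0.17) in control and -2.17 (SE 0.17) in Hnf4i midguts. mbm, a nucleolar protein known from Drosophila neuroblasts, changed by -2.66 and -2.47, and CG6769 by -1.49 and -1.32.

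CG12608 (chromosome X, 15342857 to 15344625, minus strand) had the third smallest fall. Control midguts were at 31.8, 34.8, 39.2 and 32.7 CPM on day 3 and 11.8, 12.0, 12.4 and 15.5 CPM on day 4. Hnf4i midguts were at 31.8, 39.0, 33.1 and 36.4 CPM on day 3 and 17.2, 15.4, 13.1 and 10.9 CPM on day 4. CG12608 changed by -1.42 (SE 0.13, adjusted p = 3.00e-08) in control and -1.31 (SE 0.13, adjusted p = 7.33e-08) in Hnf4i midguts.

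Levels of different genes were compared as CPM per kb of summed exon length. On that scale the snoRNP gene hoip led in control midguts on day 3 with 177, ahead of Fib with 124, nop5 with 109 and Nop56 with 108, and Myc was lowest with 7.94 behind l(3)72Dn with 10.6. On day 4 Ip259 led with 46.6, followed by CG4364 with 28.7 and hoip with 21.9, and Fib stood at 13.2. Whether reads of RpS27A, which overlaps Ip259 on the same strand, added to the value of Ip259 was not tested. The gap between neighbours such as nop5 and Nop56 on day 3 was smaller than the SD of either. Exon length was summed over all annotated isoforms, so the level of a gene such as Myc, with 9.17 kb, is a low estimate if shorter isoforms predominate.

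Gene by gene, no difference in the size of the fall between the 2 genotypes was called. The day comparisons share no library, and across the 36 genes their log2 fold changes had a Pearson r of 0.982 and a Spearman rho of 0.968, beside a Pearson r of 0.915 over all 9801 genes. These are descriptions across genes, which are not independent replicates. The fall was larger in Hnf4i than in control midguts for 9 of the 36 genes. The interaction, that is, the difference between day 4 and day 3 in the response to silencing, passed the test for 0 of the 36 genes in edgeR and for 0 in DESeq2, with 0 at an unadjusted p under 0.05 in edgeR. Its median was 0.08 and its range -0.12 to 0.37, with 95% intervals from -0.59 to 0.74, and the largest value was that of CG8545 (0.37, SE 0.18, adjusted p = 0.25). Both this median and the count of genes with a larger fall in Hnf4i midguts turned on single libraries of both days. Of day 4, the median was -0.07 with 9 values above 0 without Hnf4i replicate 1, so that most of the genes then fell more in Hnf4i midguts, and 0.17 with 35 above 0 without Hnf4i replicate 4. Without control replicate 3 or 4 of that day it was 0.01 with 20 and 0.15 with 35 values above 0. Of day 3, it was 0.14 with 30 without control replicate 1, 0.02 with 20 without control replicate 3, 0.03 with 22 without Hnf4i replicate 1 and 0.13 with 30 without Hnf4i replicate 4. Over all genes tested 2.59% were called higher and 2.44% lower for the interaction.

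Silencing of Hnf4 moved none of the 36 genes past the threshold on day 3. In that comparison 1.51% of all genes tested were called higher and 2.46% lower. The 36 log2 fold changes ran from -0.24 (Surf6) to 0.15 (Ip259), with a median of 0.00 (19 above 0) and 95% intervals between -0.50 and 0.42. The count above 0 turned on single day 3 libraries, from 7 without control replicate 1 (median -0.04) to 30 without control replicate 3 (median 0.07). The smallest adjusted p was 0.235, for Ip259, which was the only gene at an unadjusted p under 0.05 and the only one whose genotypes did not overlap on day 3, where 17.4% of all genes tested did not overlap in either direction. DESeq2 also called 0.

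On day 4 the count was again 0 of 36, in edgeR and in DESeq2, where 5.46% of all genes tested were called higher and 6.71% lower. The log2 fold changes ran from -0.17 (Surf6) to 0.28 (CG8545), with 95% intervals between -0.49 and 0.57. CG8545 and CG6769 (0.18, SE 0.08, adjusted p = 0.113) were at an unadjusted p under 0.05, and for 0 of the 36 did the genotypes not overlap, beside 24.2% of all genes tested in either direction. The median was 0.07, beside 0.02 over all genes tested, and 29 of the 36 values were above 0. The sign and size of that median turned on single libraries of day 4. Without Hnf4i replicate 1 it was -0.08 with 12 values above 0, and without Hnf4i replicate 3 or 4 it was 0.16 with 30 and 0.17 with 33 above 0. Without control replicate 3 or 4 it was 0.04 with 21 and 0.15 with 32 above 0.

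**Figure D3:**
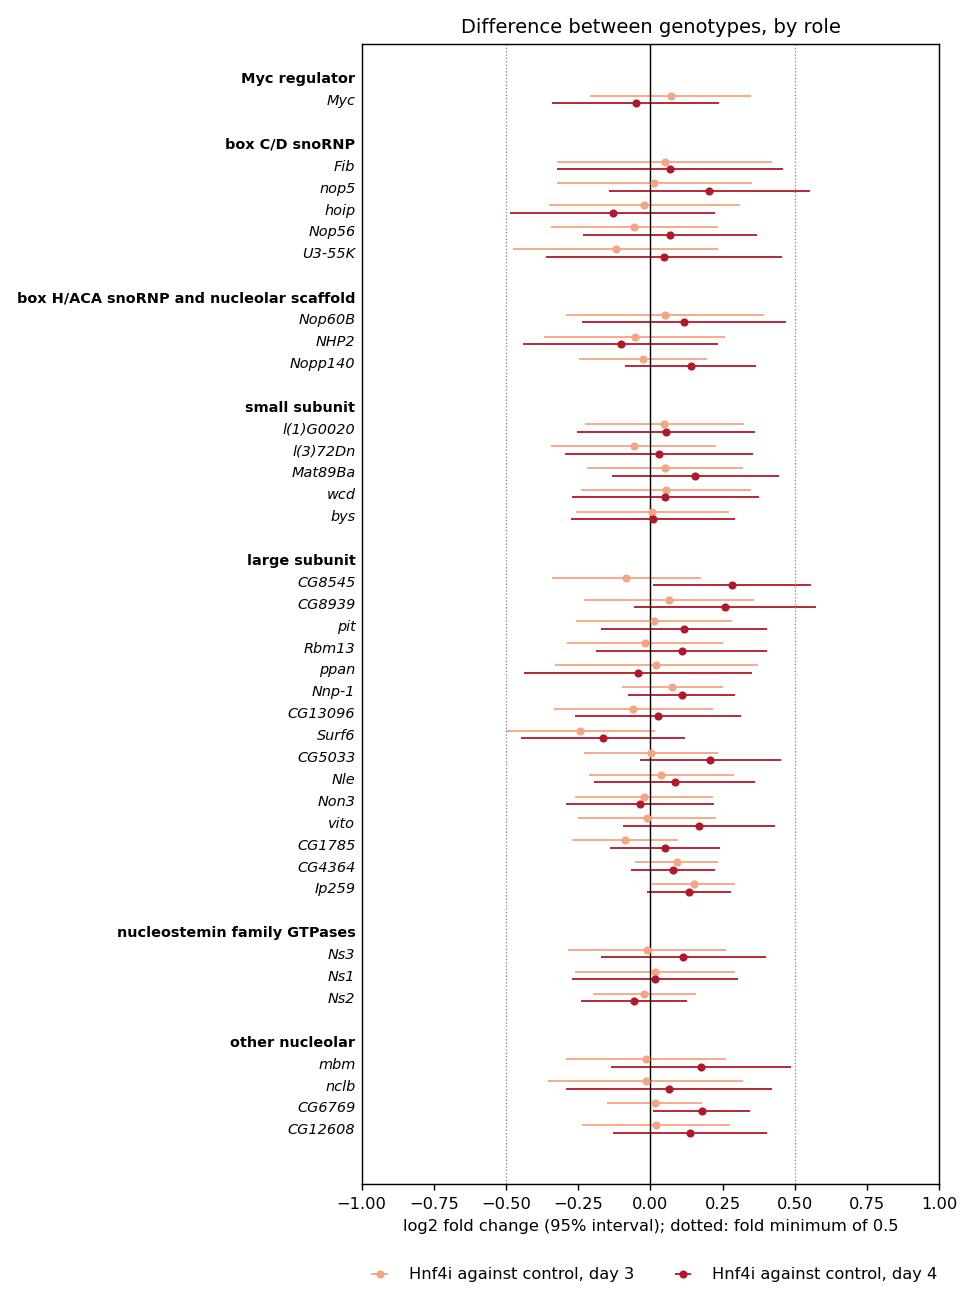
Log2 fold change of Hnf4i against control midguts on day 3 (light) and day 4 (dark) for each of the 36 genes, by role, with 95% intervals. No point reaches the dotted fold minimum of 0.5, and the values run from -0.24 to 0.15 on day 3 and from -0.17 to 0.28 on day 4.

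Within a group the 36 genes went up and down together from library to library. In control midguts replicate 3 held the highest value for 35 of the 36 genes on day 3, and replicate 4 for 31 on day 4. In Hnf4i midguts replicate 4 was highest for 27 genes on day 3, and on day 4 replicate 1 was highest for 33 and replicate 4 lowest for 25. These counts were not made over all genes tested, so whether the pattern is particular to the 36 was not tested. The median distance from the group mean on day 4 was 0.38 on the log2 scale in Hnf4i replicate 1 and -0.35 in Hnf4i replicate 4. The median coefficient of variation of the 36 genes was 23.2% in Hnf4i midguts on day 4, against 12.3% in control midguts on that day and 9.74 and 7.74% in control and Hnf4i midguts on day 3, where the medians of all genes tested were 12.5, 9.58, 8.43 and 8.81%. Fat body markers were high in both the highest (1116 CPM) and the lowest (2823 CPM) of these Hnf4i day 4 libraries, and their part in the spread was not tested.

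**Figure D4:**
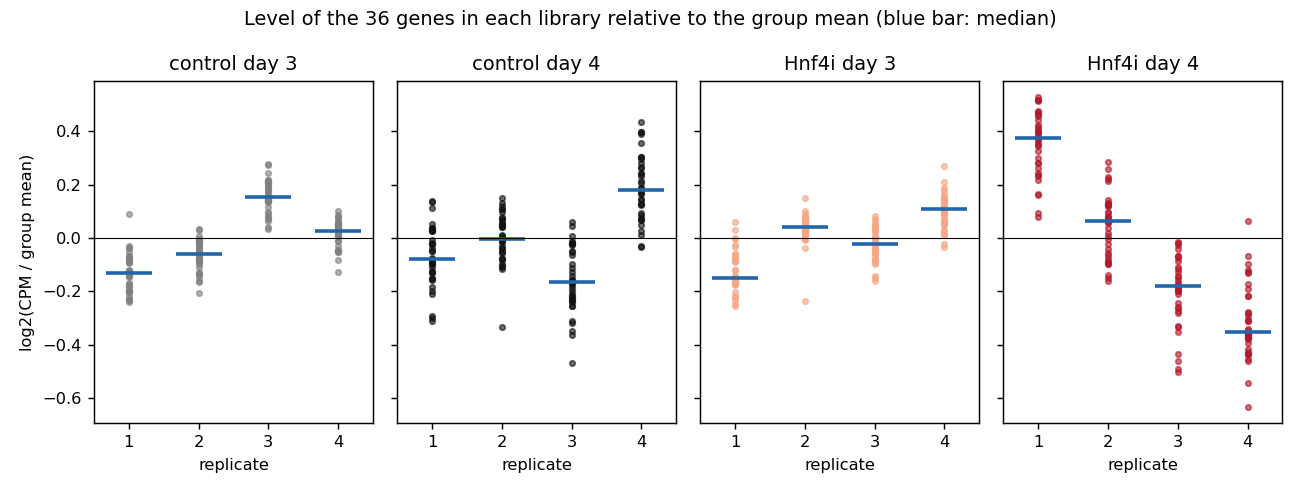
Log2 ratio of each library to its group mean for the 36 genes (points) with the median (blue bar), by group and replicate. Most genes of a library lie on the same side of the group mean, and the medians span -0.35 to 0.38 in Hnf4i midguts on day 4.

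The marker lists of other cell types also differed between groups. Progenitor markers summed to 12.5 to 18.0 CPM on day 3 and 25.0 to 33.0 CPM on day 4, and enteroendocrine markers to 266 to 308 and 310.4 to 378 CPM, so that both sums were higher on day 4. Of the 6 progenitor markers, 3 were called higher and 1 lower in control and 3 higher in Hnf4i midguts, and of the 10 enteroendocrine markers 2 were called higher in control and 1 higher and 1 lower in Hnf4i midguts. Visceral muscle markers summed to 4874 to 6785 CPM on day 3, to 5088 to 5873 CPM in control midguts on day 4 and to 3072 to 4653 CPM in Hnf4i midguts on day 4. Hemocyte markers summed to 21.0 to 28.1 CPM in control and 29.4 to 65.6 CPM in Hnf4i midguts on day 3. On day 4 they summed to 4.94 to 14.6 and 11.1 to 55.8 CPM. Malpighian tubule markers summed to at most 23.2 CPM on day 3. On day 4 these summed to 13.6 to 17.5 CPM in control and 9.09 to 57.0 CPM in Hnf4i midguts, highest in replicate 2. Neuronal markers summed to at most 21.1 CPM and salivary gland markers to at most 0.960 CPM. Defining markers at 0 in every library of control midguts on day 3 were Lsp2 of the fat body and eater of hemocytes. In Hnf4i midguts on day 3 these were Lsp1alpha and Fbp1 of the fat body. Uro and Irk3 of the tubule were at 0 in control midguts on day 4, and 2 or 3 salivary gland genes in each group. Without the 4 day 4 libraries with the most fat body transcripts, which left 1 Hnf4i library of that day, 36 genes were called lower in each genotype, with medians of -2.44 and -2.57.

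Other genes of ribosome production fell with the 36 between days. RNA polymerase I genes were lower for 8 of 8 in both genotypes, with medians of -2.29 and -2.27. Among them Polr1A, the largest catalytic subunit, went from 101 ± 6.38 to 19.5 ± 2.82 CPM in control and from 97.3 ± 6.60 to 19.9 ± 3.97 CPM in Hnf4i midguts. Of other small-subunit processing genes 23 of 23 were lower (medians -2.15 and -2.08), and of other large-subunit genes 7 of 7 (medians -2.19 and -2.14). The study chose these last 2 lists in another series of midguts of the same ages. The 36 genes and the lists beside them were chosen with earlier results of these data known. None of these sets is independent evidence of direction.

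Lists for steps around nucleolar assembly had smaller medians. The RNA exosome, which trims rRNA precursors, was lower for 11 of 11 genes (medians -1.73 and -1.59), with Csl4 at -2.30 and -2.17. Export and cytoplasmic maturation of the large subunit was lower for 6 of 6 genes (medians -1.80 and -1.70), with the export adaptor Nmd3 at -1.89 and -1.76. Of these genes eIF6 was also counted among the other large-subunit genes above. Assembly factors of snoRNPs and the remaining H/ACA genes were lower for 6 of 6 (medians -1.27 and -1.34), where Gar1 and Nop10 fell most and the ATPase rept changed by -1.36 and -1.39. RNA polymerase III genes were lower for 9 of 10 in control and 8 of 10 in Hnf4i midguts, with medians of -1.02 and -0.90.

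The ribosomal proteins themselves had the smallest median of the ribosome lists. Of 81 cytosolic ribosomal protein genes tested, 16 were called lower in control midguts (median -0.43) and 58 in Hnf4i midguts (median -0.58). Both medians lay near the fold minimum of 0.5, and at an adjusted p under 0.05 alone 80 and 81 of the 81 were lower. At that cutoff 3113 and 3293 of all 9801 genes tested were lower. Between genotypes on day 4, 60 of the 81 were lower at an adjusted p under 0.05, beside 1346 of the 9801 genes. Of the 81, 0 were past the fold minimum as well (median -0.15). The smallest adjusted p of the 81 genes for the interaction was 0.0569. RpS2 went from 1937 ± 48.5 to 1120.4 ± 34.5 CPM in control and from 1879 ± 26.1 to 975 ± 73.2 CPM in Hnf4i midguts.

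**Figure D5:**
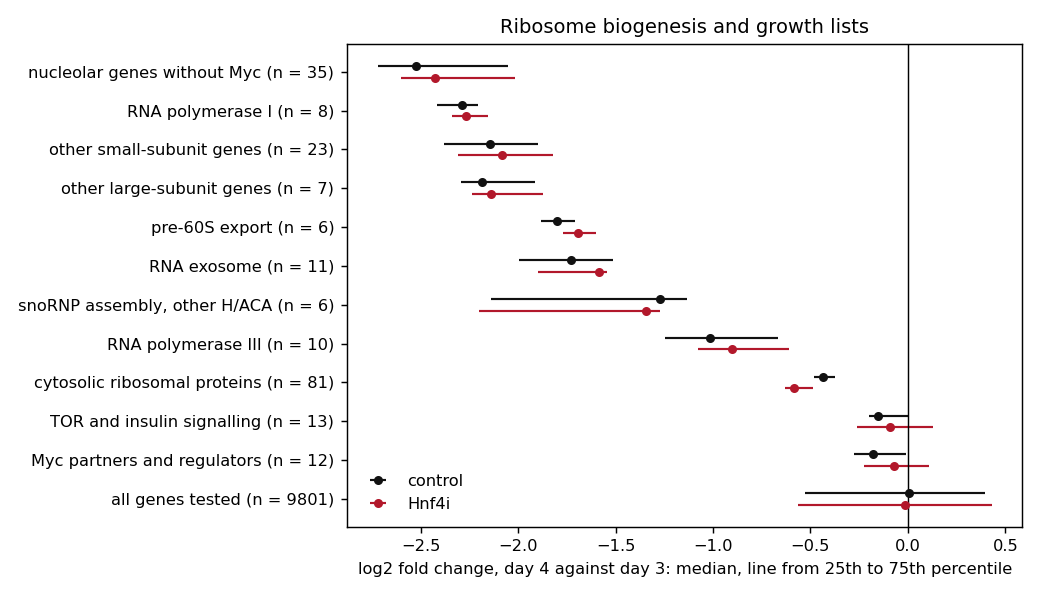
Median log2 fold change from day 3 to day 4, with the 25th to 75th percentile, for ribosome production and growth lists in control (black) and Hnf4i (red) midguts, beside all 9801 genes tested. The 35 genes other than Myc lie lowest, at -2.52 and -2.43, and ribosomal proteins at -0.43 and -0.58.

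In the TOR and insulin pathway, which controls ribosome production by nutrients, few genes were called. At an adjusted p under 0.05 alone, 2 of 13 were higher and 7 lower in control midguts, and 4 were higher and 5 lower in Hnf4i midguts. Beside them, 3022 of all 9801 genes tested were higher and 3113 lower in control midguts, and 3077 and 3293 in Hnf4i midguts. With the fold minimum, Thor and InR were lower in control midguts (median -0.15), and InR was lower and REPTOR higher in Hnf4i midguts (median -0.09). InR, the insulin receptor, went from 24.6 ± 1.45 to 11.1 ± 1.28 CPM in control and from 24.8 ± 1.31 to 14.1 ± 1.92 CPM in Hnf4i midguts. REPTOR, a transcription factor held back by TOR, went from 35.4 ± 2.68 to 62.3 ± 14.8 CPM in Hnf4i midguts (log2 fold change 0.82, adjusted p = 8.02e-05). In control midguts it went from 39.1 ± 3.25 to 52.0 ± 8.81 CPM (0.41, adjusted p = 0.0192), under the fold minimum, and the interaction was 0.41 (adjusted p = 0.26).

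Thor, which encodes the translation inhibitor 4E-BP, was the only gene of these pathways called for the interaction. In control midguts it was at 248, 228, 335 and 184 CPM on day 3 and 37.3, 53.3, 102 and 83.1 CPM on day 4. In Hnf4i midguts it was at 169.7, 217, 238 and 125 CPM on day 3 and 140.2, 186, 271 and 206 CPM on day 4. It fell in control (log2 fold change -1.85, SE 0.29, adjusted p = 2.80e-05), and all 4 Hnf4i libraries of day 4 lay above all control libraries of that day (1.54, SE 0.29, adjusted p = 6.89e-04). In edgeR it was not called between days in Hnf4i midguts (0.10, SE 0.28, adjusted p = 0.774) or between genotypes on day 3 (-0.41, SE 0.28, adjusted p = 0.503). The interaction was 1.95 (SE 0.40, adjusted p = 0.00579).

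Beyond Thor, 2 genes of these lists were called between genotypes, both on day 4. Polr1E, an RNA polymerase I subunit, averaged 9.80 ± 1.04 CPM in control libraries and 14.1 ± 1.89 CPM in Hnf4i libraries (log2 fold change 0.53, SE 0.09, adjusted p = 3.81e-04). On day 3 it stood at 49.2 ± 3.26 and 67.0 ± 2.54 CPM, a difference of 0.44 (adjusted p = 0.00254) that was under the fold minimum. The day 4 call was lost without control replicate 3 (0.46) and without Hnf4i replicate 1 (0.45) or 2 (0.50). brat, a translational repressor that limits Myc in Drosophila neuroblasts, stood at 8.24 ± 1.48 and 12.6 ± 2.65 CPM on day 4 (0.62, SE 0.14, adjusted p = 0.00343), and its call was lost without Hnf4i replicate 3 (0.48).

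Some genes of the 36 share exon positions with other genes, 4 on the same strand and 10 on the opposite strand. The 23 genes with no exon overlap were all called lower in both genotypes. Surf6 overlaps ClpX on the same strand, Nop60B overlaps snoRNA genes and Myc a long noncoding RNA, and l(1)G0020 and CG1785 overlap each other on opposite strands. ClpX changed by 0.21 in control and 0.37 in Hnf4i midguts, against the direction of Surf6. The library kit keeps strand, but the strand setting of the counting is not given in the sources used here, so reads of opposite-strand partners may not have been separated.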

How the data were processed

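Polyadenylated RNA of 16 midgut libraries was sequenced with a stranded kit. According to the submitters' processing notes, reads were handled with FastQC 0.11.7, MultiQC 1.12, Trimmomatic 0.39, STAR 2.7.10b, R 4.5.1 and DESeq2 1.49.3 on the BDGP6 build. Salmon appears in the study's list of software with no data type beside it, and which tool and strand setting gave these counts is not stated there. The authors deposited raw counts per gene, CPM made from the same counts (equal to within 4.91e-11) and fold changes with p-values, which were not used. Spike-in transcripts have 0 entries, so no absolute scale was set. Of 24254 entries, 6381 are not genes and were left out of tests.

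Tests were run on the counts with edgeR 4.0.16 (limma 3.58.1, R 4.3.3). filterByExpr (minimum count 10, minimum total 15) kept 9801 genes, libraries were scaled by TMM, and 1 quasi-likelihood model with 4 group means was fitted to all 16 libraries. Tests were two-sided, with Benjamini-Hochberg adjustment over all genes tested, and DESeq2 1.42.0 was an alternative. The scripts were tested on simulated data. SE is the absolute log2 fold change divided by the square root of F. Gene positions and exon lengths came from the Ensembl annotation of BDGP6.54. The 36 genes, the 19 pathway and marker lists and the tests were chosen with earlier results of these data known. Named genes are Hnf4, the 36, and up to 3 called genes per pathway list and comparison with the largest changes, and RpS27A and ClpX for their exon overlap, chosen after their values were seen. Marker genes were also named after their values were seen, and eIF6 for its place in both large-subunit lists. Values in every library are given for Myc, the highest mean CPM over all 16 libraries in each role, and the 3 largest and 3 smallest falls in control midguts. Mnt and Thor were added after their values were seen. Replicates are labelled as biological, with no source culture named, and intervals cover the spread between these libraries. A planned count of promoter motifs was not run, since no promoter sequence was used here.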

Additional observations from a re-analysis of the deposited data

Results flagged for a closer look

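In 8 of the 144 sets of 4 replicates (36 genes in 4 groups, 5.56%) 1 replicate lay far from the other 3, a gap that chance gives in about 1 of 20 sets. Replicate 1 of Hnf4i on day 3 was low for Fib (142 CPM, others 175 to 180.4), NHP2 (57.5, others 69.3 to 70.8) and ppan (24.4, others 29.4 to 30.3), and replicate 4 of that group was high for Ns2 (73.0, others 60.9 to 62.9). Replicate 3 of control midguts on day 3 was high for l(3)72Dn (28.1 CPM, others 23.3 to 23.8) and CG8545 (107, others 91.9 to 93.4). On day 4 control replicate 4 was high for CG12608 (15.5 CPM, others 11.8 to 12.4), and Hnf4i replicate 1 was high for mbm (6.94, others 4.45 to 4.56).

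Thor, the 4E-BP gene, was called between genotypes on day 4 and not on day 3. The test of the difference between the 2 days in the response to silencing gave 1.95 on the log2 scale (SE 0.40, adjusted p = 0.00579 in edgeR's quasi-likelihood test).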

How the results depend on the processing

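The 36 genes kept their direction and their side of the threshold in the day comparisons, and none was called in a genotype comparison or the interaction, under all 25 alternatives (24 for the interaction). Between genotypes the fold minimum held that count at 0 in 5 alternatives, where the smallest adjusted p of the 36 was under 0.05: 0.0411 on day 3 with only the groups compared, and on day 4 0.0118 with library totals alone, 0.0155 without Hnf4i replicate 4, 0.0321 without control replicate 4 and 0.0353 without the 4 libraries with most fat body transcripts. The log2 fold changes of the 36 ran from -3.53 to -0.99 in control midguts, -3.67 to -0.997 in Hnf4i midguts, -0.31 to 0.22 between genotypes on day 3, -0.47 to 0.40 on day 4 and -0.48 to 0.48 for the interaction. With library totals alone the median of all genes was -0.29 in control and -0.28 in Hnf4i midguts, and the medians of the 36 moved to -2.79 and -2.66. That scaling also changed the split of calls from 1668 higher and 2176 lower to 901 and 3361 in control midguts, from 1842 and 2339 to 1116 and 3347 in Hnf4i midguts, from 148 and 241 to 213 and 212 between genotypes on day 3, and from 535 and 658 to 763 and 517 on day 4. With no fold minimum the counts over all genes were higher, 3022 rather than 1668 genes up in control and 3077 rather than 1842 in Hnf4i midguts, 357 up and 464 down between genotypes on day 3, 1345 and 1346 on day 4, and 461 and 389 for the interaction against 254 and 239, and with the other settings as in the report 0 of the 36 were called between genotypes or for the interaction. Without the 4 libraries named below the interaction had 488 genes up.

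Without the 4 day 4 libraries with most fat body transcripts, 1 Hnf4i library remained on day 4 and was assumed to vary like the other groups. The median then was -2.57 for the fall in Hnf4i midguts, -0.14 between genotypes on day 4 (8 of 36 above 0) and -0.17 for the interaction. There CG18178, a large-subunit gene outside the 36, reversed and was called, at -0.64 between genotypes on day 4 (SE 0.14) and -0.66 for the interaction (SE 0.16), and Polr1E was no longer called (0.25). brat was called for the interaction with DESeq2 (0.63), without those 4 libraries (1.10) and without control replicate 3, Hnf4i replicate 2 or Hnf4i replicate 4 of day 4 (0.69 to 0.74). The causes were not tested. Replicate numbers did not pair the samples (24 pairs, r from -0.17 to 0.09, own number best in 5). With the replicate block the counts stayed at 36, 36, 0, 0 and 0, and brat was also called for the interaction (0.61). Differences smaller than about 0.5 on the log2 scale cannot be called by construction.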
